A study of Mus musculus with 12 samples.

Results

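The 10 genes described here carry glucose into the cell, turn it into lactate and carry lactate out: the transporter genes Slc2a1 and Slc16a1 and the enzyme genes Hk1, Hk2, Pfkp, Aldoc, Pgk1, Pkm, Ldha and Ldhb. They were taken by symbol from a table of 56860 named genes, all 10 were found, and all 10 were among the 16600 genes with enough counts to be tested. The RNA came from primary oligodendrocytes (OLs) of C57BL/6J mice, which the methods describe as O4+ cells pulled down from newborn cortex with antibody-coated beads, while the labels give the medial prefrontal cortex as the tissue. After growth with PDGF-AA and 2 days of differentiation with insulin, triiodothyronine and ciliary neurotrophic factor, the siEgr2 group (6 libraries) received an siRNA against the transcription factor gene Egr2 and the siNC group (6 libraries) a scrambled siRNA (the methods also speak of an interference plasmid), and cells of both groups were taken 48 h later. Nothing in the labels says whether the 6 libraries of a group came from separate cultures or animals, so the p-values measure the spread between these libraries, which may be technical. The comparison asks which of these genes differed in RNA level between siEgr2-treated and siNC-treated OLs.

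Glycolysis begins when hexokinase phosphorylates glucose taken up through facilitative transporters such as GLUT1, and phosphofructokinase then commits the sugar to breakdown. Aldolase splits it, phosphoglycerate kinase and pyruvate kinase yield ATP, and lactate dehydrogenase interconverts pyruvate and lactate, which leaves or enters the cell through monocarboxylate transporters such as MCT1. In white matter, OLs are known for their high MCT1 and for passing lactate to axons, and astrocytes are known for their store of glycogen and their high glycolytic rate.

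Total counts on genes ran from 28682946 to 39383014 in siNC libraries and from 8034251 to 16683677 in siEgr2 libraries, and the share of the 18S ribosomal RNA gene Rn18s-rs5 from 0.142% to 1.05% and from 10.5% to 16.5%. Depth, ribosomal RNA share and treatment separate the libraries in the same way and cannot be told apart. The targeted gene Egr2 stood at 3.89 to 7.06 CPM (counts scaled to a common library size by the TMM method) in siNC and at 2.22 to 4.86 CPM in siEgr2, with a log2 fold change of -0.51 (SE 0.21, adjusted p = 0.0981, from the quasi-likelihood test of edgeR, as are all adjusted p-values of single genes below), so its fall did not pass the test. The 10 genes had between 310 and 39854 counts each in any library, more than Egr2 had in any library, and made up 0.309% to 0.321% of the counts in siNC and 0.229% to 0.255% in siEgr2. The OL gene Mbp, which encodes a myelin protein, stood at 1830 ± 134 CPM in siNC (SD, n = 6), and the astrocyte gene Gfap, an intermediate filament, at 4777 ± 205 CPM, so RNA of astrocyte markers was abundant in these libraries labelled as OLs. In bulk RNA, fewer cells of a type and less RNA per cell cannot be told apart.

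Of the 10 genes, 7 fell in siEgr2 at an adjusted p under 0.05 and 0 rose. Slc16a1 changed most, followed by Pfkp and Hk2, while Slc2a1, Ldhb, Aldoc and Pgk1 fell by less. Hk1, Ldha and Pkm did not pass the test. With the further requirement of an absolute log2 fold change over 0.5, the genes called were Slc16a1, Pfkp and Hk2. Over all genes tested, 11.3% fell and 8.57% rose at the adjusted p alone, and 5.08% were called lower and 2.63% called higher, against 7 and 3 of the 10 lower and 0 higher by either rule. The median log2 fold change was -0.35 for the 10 genes and 0.0046 for all genes tested. In 6 of the 10 genes every siEgr2 library lay below every siNC library, and in 0 above, where 7.00% of all tested genes were separated downward and 4.15% upward. With scaling by library size only, the median of all genes shifted to -0.18, all 10 genes passed the adjusted p (Hk1, Ldha and Pkm included) and 6 were called lower. The median of the 10 genes lay 0.36 below that of all genes with either scaling, a gap that a change of scaling leaves nearly the same by construction. Markers of astrocytes moved in the same direction: the summed level of 9 such genes was 7695 to 8370 CPM in siNC and 4857 to 5506 CPM in siEgr2, and its part in the fall of the 10 genes was not tested. Scaling by library size only also moved the share of called genes that fell from 65.9% to 88.0%. The plot of levels in each library shows the 10 genes with their spread.

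**Figure D1:**
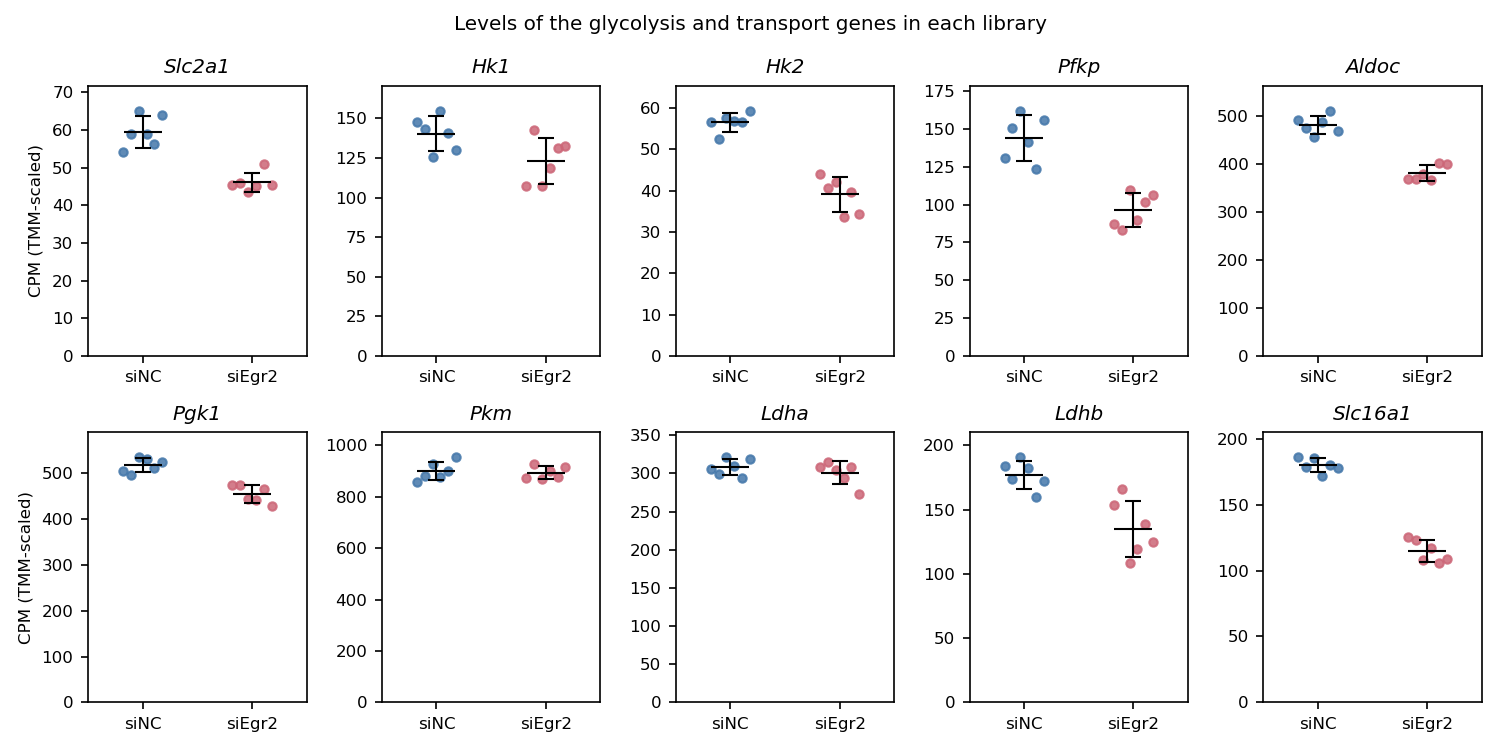
Levels of the 10 genes in CPM scaled by TMM, 1 panel per gene, with siNC libraries on the left and siEgr2 libraries on the right. Each point is 1 library, the long bar is the mean and the whiskers are 1 SD (n = 6 per group). The groups are apart in Slc2a1, Hk2, Pfkp, Aldoc, Pgk1 and Slc16a1, and overlap in Hk1, Pkm, Ldha and Ldhb.

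Levels of different genes can be set side by side only per length, here as CPM per kb of exon. On this scale Pkm was the highest of the 10 genes in siNC at 346 ± 13.8 CPM per kb (SD, n = 6), followed by Pgk1 at 283 ± 8.39. Ldha at 162 ± 5.60 and Aldoc at 162 ± 6.52 came next and their ranges over the siNC libraries overlapped, so this pair is not ordered. Ldhb followed at 136 ± 8.37 and Slc16a1 at 40.6 ± 1.20 CPM per kb. Pfkp at 33.5 ± 3.48 and Hk1 at 28.9 ± 2.25 again overlapped. Slc2a1 at 18.2 ± 1.31 and Hk2 at 10.1 ± 0.402 CPM per kb were the lowest, with Hk2 below every other gene of the set in each siNC library. In siEgr2 the order of the means was the same apart from Pfkp, which stood at 22.4 ± 2.58, under Hk1 at 25.4 ± 2.97 CPM per kb. The siEgr2 ranges of Pfkp, Hk1 and Slc16a1 overlapped, as did those of Aldoc and Ldhb, so these are not ordered there. Among the 10 genes, Pkm and Pgk1, of the ATP-yielding steps, were thus the most abundant and Slc2a1 and Hk2 the scarcest in both groups. The order did not follow the pathway throughout, since Aldoc, of an earlier step, stood above Ldhb in siNC.

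Among the transporters, Slc16a1 encodes MCT1, which moves lactate, pyruvate and ketone bodies together with a proton, and lies on chromosome 3 of GRCm38 from 104638668 to 104658462. It ranged from 172 to 186 CPM in siNC (median 179) and from 106 to 125 CPM in siEgr2 (median 113). The highest siEgr2 library stayed well below the lowest siNC library. Its log2 fold change was -0.65 (SE 0.047, edgeR adjusted p = 1.20e-07), the level fell by 36.2%, and it ranked 42 by p among the 16600 genes tested. It was also the only one of the 10 genes called by edgeR's glmTreat, which tests against a log2 fold change of 0.5 instead of 0.

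Slc2a1 encodes GLUT1, the glucose transporter of glia and of the blood-brain barrier, and lies on chromosome 4 from 119108711 to 119137983. Its level was 54.1 to 65.1 CPM in siNC (median 59.0) and 43.6 to 51.0 CPM in siEgr2 (median 45.4). The groups did not overlap, and 5 of the 6 siEgr2 libraries lay between 43.6 and 45.8 CPM. The log2 fold change was -0.37 (SE 0.058, edgeR adjusted p = 0.000245), below the size needed for a call. Endothelial cells also carry this transporter. Of their 6 markers, Cldn5, a tight junction gene, had 0 counts in every library, where a count of 0 allows up to 3 counts, while Cdh5 had 60 to 128 counts in siNC and 14 to 100 in siEgr2, Abcb1a 49 to 87 and 10 to 24, and Flt1 45 to 97 and 3 to 22. These are raw counts, and the siEgr2 totals were lower. After scaling, Flt1 fell (log2 fold change -1.35, edgeR adjusted p = 0.0164). Cdh5 (0.053, edgeR adjusted p = 0.951) and Abcb1a (-0.67, edgeR adjusted p = 0.125) did not pass. The markers summed to 5.99 to 7.93 CPM in siNC and 2.47 to 8.46 CPM in siEgr2, and their part in the fall of Slc2a1 was not tested.

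Of the pair of hexokinases, Hk2, the form known for its induction by growth signals and low oxygen, fell and Hk1, the housekeeping form of brain, did not pass the test. Hk2, on chromosome 6 from 82725025 to 82774454, ranged from 52.5 to 59.4 CPM in siNC (median 56.6) and from 33.7 to 44.1 CPM in siEgr2 (median 40.2). All siEgr2 libraries lay below all siNC libraries. Its log2 fold change was -0.53 (SE 0.068, edgeR adjusted p = 3.61e-05). This value is close to the threshold for a call, and without siEgr2 replicate 4 or 6 it was -0.494 or -0.499, with the gene no longer called. Hk1, on chromosome 10 from 62268855 to 62379908, ranged from 126 to 155 CPM in siNC and from 107 to 142 CPM in siEgr2, and the groups overlapped. Its log2 fold change was -0.19 (95% interval -0.34 to -0.032, edgeR adjusted p = 0.0864), and without siEgr2 replicate 2 it was -0.24 and passed (edgeR adjusted p = 0.0284).

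Pfkp, the platelet form of phosphofructokinase, is also expressed in brain and lies on chromosome 13 from 6579768 to 6648777. Its level was 123 to 162 CPM in siNC (median 146) and 83.1 to 110 CPM in siEgr2 (median 95.7). The groups were separate, although both spread widely. The log2 fold change was -0.58 (SE 0.081, edgeR adjusted p = 0.000109). Pfkp shares 748 bp of exon with Pitrm1 on the opposite strand, whose own level was 82.1 ± 3.33 CPM in siNC and 82.6 ± 6.31 CPM in siEgr2 (SD, n = 6), and whether the counting used strand is not stated. Of the other forms of the enzyme, the muscle form Pfkm fell from 164 ± 5.22 to 133 ± 7.69 CPM (log2 fold change -0.31, edgeR adjusted p = 9.07e-05) and the liver form Pfkl stood at 59.9 ± 3.35 and 62.2 ± 6.45 CPM (log2 fold change 0.052, 95% interval -0.092 to 0.20).

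The promoter windows of the 3 called genes and of Ldha, which did not pass the test, are shown because these genes differ in response while all lie in the same pathway. Each runs from 250 bases before to 50 bases after a RefSeq start on GRCm38.p6, 5′ to 3′ on the strand of the gene, with capitals on the letters ACGTG (the core of the hypoxia response element), CACGTG (the E-box, which contains ACGTG on both strands) or the Egr family sites GCGTGGGCG and GCGGGGGCG, in either orientation.
Slc16a1, chr3:104638414-104638713, plus strand: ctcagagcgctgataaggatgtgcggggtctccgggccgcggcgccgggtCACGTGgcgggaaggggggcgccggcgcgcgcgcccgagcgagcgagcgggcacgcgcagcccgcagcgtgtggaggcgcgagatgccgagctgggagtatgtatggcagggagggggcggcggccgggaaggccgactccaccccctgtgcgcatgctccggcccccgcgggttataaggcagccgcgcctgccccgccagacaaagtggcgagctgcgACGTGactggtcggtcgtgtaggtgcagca
Pfkp, chr13:6648722-6649021, minus strand: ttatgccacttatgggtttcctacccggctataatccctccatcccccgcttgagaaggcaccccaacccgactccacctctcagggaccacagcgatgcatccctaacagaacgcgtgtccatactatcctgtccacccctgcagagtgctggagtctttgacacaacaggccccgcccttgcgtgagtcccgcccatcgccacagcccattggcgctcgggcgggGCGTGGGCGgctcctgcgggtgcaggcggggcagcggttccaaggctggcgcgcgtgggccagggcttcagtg
Hk2, chr6:82774405-82774704, minus strand: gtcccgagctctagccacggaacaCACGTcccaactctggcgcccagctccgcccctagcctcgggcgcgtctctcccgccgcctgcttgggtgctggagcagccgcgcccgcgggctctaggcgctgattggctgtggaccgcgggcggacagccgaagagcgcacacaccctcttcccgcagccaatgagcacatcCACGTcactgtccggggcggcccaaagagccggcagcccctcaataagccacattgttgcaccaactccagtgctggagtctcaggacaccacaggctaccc
Ldha, chr7:46845554-46845853, plus strand: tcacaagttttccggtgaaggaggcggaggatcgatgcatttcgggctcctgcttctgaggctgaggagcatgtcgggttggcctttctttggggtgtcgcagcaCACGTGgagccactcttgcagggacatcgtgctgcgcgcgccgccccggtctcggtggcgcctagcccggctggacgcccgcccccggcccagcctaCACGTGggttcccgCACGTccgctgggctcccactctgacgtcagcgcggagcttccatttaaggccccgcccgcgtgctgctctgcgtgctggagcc
Counted with the first transcribed base as 1, Pfkp holds GCGTGGGCG at -23 and none of the other letters searched. Slc16a1 holds CACGTG at -200 and ACGTG at 21, and Hk2 holds the reverse of ACGTG at -226 and -52. Ldha holds CACGTG at -145 and -48 and the reverse of ACGTG at -34, while a second RefSeq window of this gene, chr7:46846832-46847131, holds none of the letters searched. Hk1, Aldoc and Pkm likewise have 1 window with ACGTG and 1 without. Over the 14 windows of the 10 genes, ACGTG was found for 8 genes, all but Pfkp and Ldhb, against 21.8% of all 27025 genes in the promoter table, and GCGTGGGCG for 1 gene, Pfkp, against 0.707%. GCGGGGGCG was found for 0 of the 10 genes, against 3.31% of all genes. The windows of the 10 genes are richer in CpG than most, with a median of 20.5 CpG per window against 7 over all 32851 windows, and both ACGTG and the Egr sites contain a CpG.

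Aldoc encodes the brain aldolase, which in the adult brain is a known astrocyte gene, and lies on chromosome 11 from 78322968 to 78327781. It stood at 457 to 512 CPM in siNC (median 481) and at 367 to 403 CPM in siEgr2 (median 375). Every siEgr2 library lay below every siNC library. The log2 fold change was -0.34 (SE 0.037, edgeR adjusted p = 6.96e-06). Its partner at this step, the ubiquitous Aldoa, had a log2 fold change of -0.16 (95% interval -0.30 to -0.010, edgeR adjusted p = 0.129).

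Pgk1, the phosphoglycerate kinase of somatic cells, is the one gene of the set on the X chromosome, from 106187100 to 106203699. Its level was 496 to 535 CPM in siNC (median 517) and 428 to 475 CPM in siEgr2 (median 455), with no overlap. The log2 fold change was small, -0.18 (SE 0.034, edgeR adjusted p = 0.000972). Reads of 50 bp that fit near-identical copies make such counts uncertain. The copy Pgk1-rs7 had 98 to 437 counts in these libraries, against at least 3633 for Pgk1.

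Pkm, which encodes pyruvate kinase of muscle and brain, lies on chromosome 9 from 59656368 to 59679375. It ranged from 859 to 954 CPM in siNC (median 890.1) and from 868 to 927 CPM in siEgr2 (median 889), and the siEgr2 range lay inside that of siNC. The log2 fold change was -0.0092 (95% interval -0.076 to 0.057, edgeR adjusted p = 0.873), and it turned to 0.027 with scaling by library size after ribosomal and other structural RNA genes were left out. The counts do not tell apart the spliced forms M1 and M2 of this gene. A tentative gene model, Gm49759, shares 334 bp of exon with it.

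Lactate dehydrogenase is a tetramer of A chains from Ldha and B chains from Ldhb, where the A chain is known for favoring lactate formation and the B chain for favoring its use. Ldha, on chromosome 7 from 46841475 to 46855627, ranged from 295 to 321 CPM in siNC (median 307) and from 273 to 315 CPM in siEgr2 (median 306). Its log2 fold change was -0.035 (95% interval -0.12 to 0.047, edgeR adjusted p = 0.584), and 0.00055 with scaling by library size after the structural RNA genes were left out. Ldhb, on chromosome 6 from 142490249 to 142507957, ranged from 159.8 to 191 CPM in siNC (median 178) and from 109 to 166 CPM in siEgr2 (median 132). The highest siEgr2 library was above the lowest siNC library, and the siEgr2 group spread widely. The log2 fold change of Ldhb was -0.39 (SE 0.090, edgeR adjusted p = 0.00705), and with every library thinned to the smallest total it was -0.34 and no longer passed (edgeR adjusted p = 0.0688). The plot of fold changes sets these values along the pathway.

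**Figure D2:**
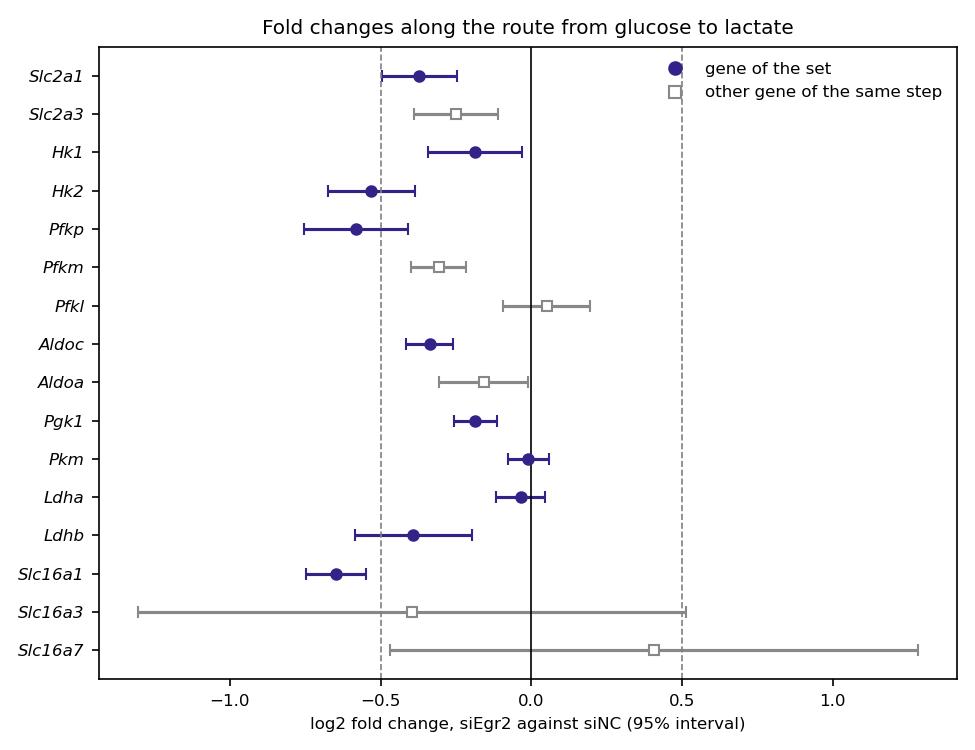
Log2 fold change of siEgr2 against siNC with its 95% interval, from edgeR's fit over all genes, in the order of the route from glucose uptake to lactate transport. Filled circles are the 10 genes, open squares the other genes of the same steps, and dashed lines mark 0.5 in either direction. Slc16a1, Pfkp and Hk2 lie beyond -0.5, and Pkm and Ldha lie at 0 within their intervals.

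Where a step is served by more than 1 gene, the share of the counts of the step taken by 1 of them does not depend on how libraries are scaled against each other. Each share is over named genes alone: Hk1 and Hk2, Pfkp, Pfkm and Pfkl, Aldoa and Aldoc, Ldha and Ldhb, Slc2a1 and Slc2a3, and Slc16a1, Slc16a3 and Slc16a7, with other Slc2a and Slc16a genes left out. Of 6 such shares, 4 were lower in siEgr2 (two-sided exact permutation test, Benjamini-Hochberg adjustment over the 6 shares). Ldhb took 36.5% ± 1.09 of the lactate dehydrogenase counts in siNC and 30.9% ± 2.98 in siEgr2 (SD, n = 6 libraries each), lower in all 6 siEgr2 libraries than in any siNC library (exact p = 0.00216, the smallest this design allows, adjusted p = 0.0130). Pfkp took 39.1% ± 2.48 of the phosphofructokinase counts in siNC and 33.1% ± 3.17 in siEgr2 (exact p = 0.00866, adjusted p = 0.0260). Hk2 took 28.8% ± 2.14 of the hexokinase counts and then 24.2% ± 3.52 (exact p = 0.0303, adjusted p = 0.0455), and Aldoc took 54.5% ± 2.62 of the aldolase counts and then 51.3% ± 1.74 (exact p = 0.0281, adjusted p = 0.0455). The shares of Hk2, Pfkp and Aldoc overlapped between the groups, at 26.8% to 31.5% against 20.6% to 29.1%, 35.2% to 41.3% against 28.9% to 36.8%, and 51.3% to 57.8% against 48.6% to 53.0%. The calls of the Hk2 and Aldoc shares are weak, since each was lost in 9 of the 12 tests that left out 1 library, and Pfkp lost its call in 3 of the 12. Only the Ldhb share passed in all 12.

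Both transporter shares missed the threshold. Slc2a1 took 70.5% ± 1.45 of the counts of Slc2a1 and Slc2a3 (GLUT3, known as a neuronal transporter) in siNC and 68.8% ± 2.13 in siEgr2 (SD, n = 6, exact permutation p = 0.130, adjusted p = 0.130). Slc2a3 itself fell from 24.9 ± 0.522 to 20.9 ± 1.44 CPM (log2 fold change -0.25, edgeR adjusted p = 0.0122). Slc16a1 took 92.4% ± 2.68 of the summed counts of Slc16a1, Slc16a3 and Slc16a7 in siNC and 86.0% ± 7.42 in siEgr2 (exact permutation p = 0.0628, adjusted p = 0.0753). That spread follows Slc16a7, which encodes MCT2 and stood at 25.1 CPM in siNC replicate 6, 29.2 CPM in siEgr2 replicate 4 and 37.5 CPM in siEgr2 replicate 6, against 8.96 to 12.5 CPM in the other 9 libraries. Without siNC replicate 6 or without siEgr2 replicate 1, the share of Slc16a1 differed by -7.37 or -7.55 percentage points and passed, with adjusted p = 0.0390 and 0.0422 in the exact permutation test. Without siEgr2 replicate 6 or 4, the libraries of highest Slc16a7, the difference was -3.96 or -4.97 percentage points and did not pass (adjusted p = 0.135 and 0.117, exact permutation test). Slc16a3, the gene of the lactate exporter MCT4, had 31 to 52 counts in siNC libraries and 0 to 18 in siEgr2 libraries, and its log2 fold change of -0.40 had a 95% interval that includes 0.

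**Figure D3:**
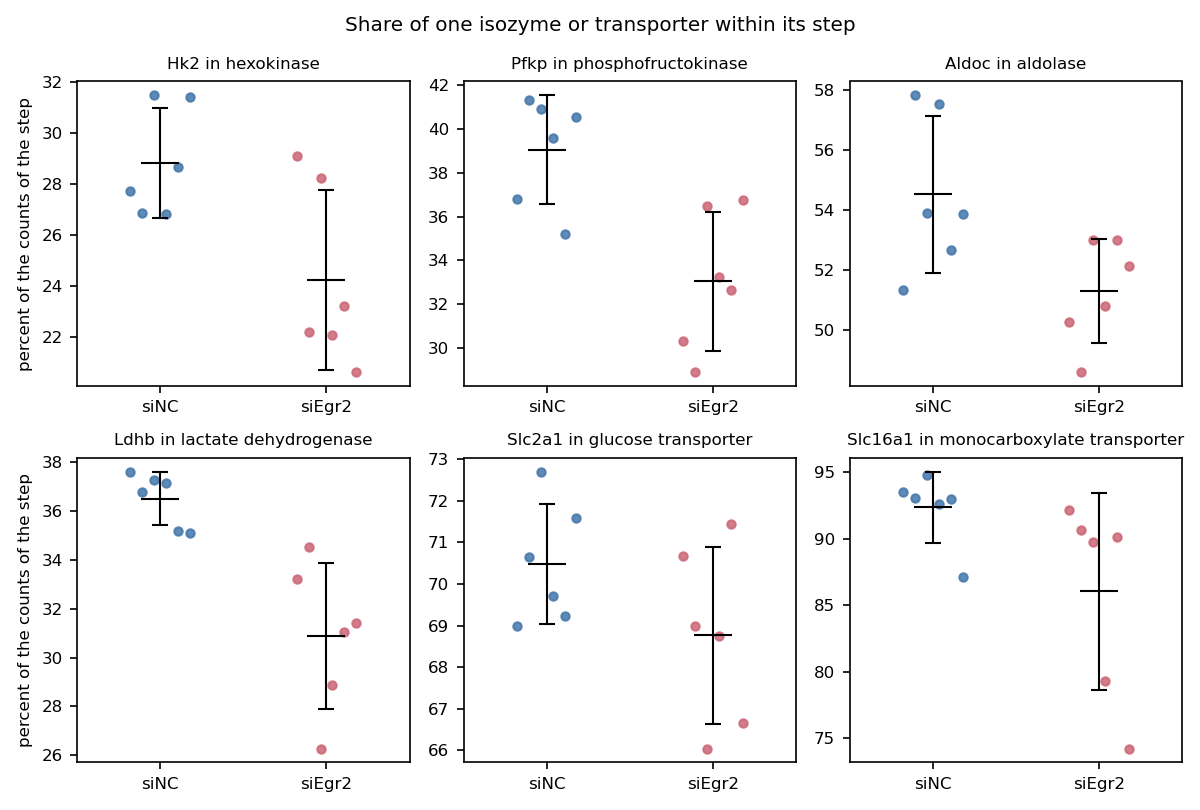
Share of the counts of a step, in percent, taken by 1 gene, for hexokinase, phosphofructokinase, aldolase and lactate dehydrogenase, for Slc2a1 with Slc2a3, and for Slc16a1 with Slc16a3 and Slc16a7. Each point is 1 library, the long bar is the mean and the whiskers are 1 SD (n = 6 per group), and the axes do not start at 0. The groups are apart in Ldhb alone, and 2 siEgr2 libraries stand low in Slc16a1.

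Among the other enzymes of glycolysis, 14 of 23 listed genes were tested, 4 fell at the adjusted p, 0 rose, 0 were called and the median log2 fold change was -0.12. Gpi1, the phosphoglucose isomerase, fell by 0.40 on the log2 scale (edgeR adjusted p = 1.41e-05), from 341 ± 17.6 to 257 ± 17.2 CPM, and Eno3 had -0.34 with an adjusted p of 0.516. Tpi1, Pfkm and Eno1 were the other 3 that fell. Gapdh had 127 to 896 counts in any library while its pseudogene Gapdh-ps15 had up to 2160, so its level is uncertain. Of the 5 tested genes that make or remove the activator of phosphofructokinase or reverse its step, 0 passed the adjusted p in edgeR's test, with log2 fold changes of -0.14 for Pfkfb3 and -0.12 for Pfkfb4.

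Of 14 tested genes of glycogen metabolism, 6 fell, 0 rose and 4 were called lower, with a median log2 fold change of -0.27. Ppp1r3c, which targets a phosphatase to glycogen and promotes its synthesis, fell from 80.3 ± 5.82 to 48.6 ± 3.83 CPM (log2 fold change -0.72, edgeR adjusted p = 7.36e-07). The brain glycogen phosphorylase Pygb had -0.51, the phosphoglucomutase Pgm1 -0.51 and Ugp2, which makes the activated glucose for glycogen, -0.50. In the pentose phosphate pathway 4 of 8 tested genes fell and 0 were called. H6pd had a log2 fold change of -0.47, and Rpia had 0.42 with an adjusted p of 0.0508.

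At the entry of pyruvate into mitochondria, 4 of 14 tested genes fell and 0 rose. The 1 called gene was Pdk4, a kinase that inhibits pyruvate dehydrogenase, with a log2 fold change of -0.75 (7.93 ± 0.720 to 4.68 ± 1.21 CPM, edgeR adjusted p = 0.00228). The list of other Slc2a and Slc16a family genes, and of genes for proteins that act on transport, went both ways, with 5 of 14 tested that fell and 2 that rose. Called lower were Slc2a4 (GLUT4, -1.55 on 6 to 27 counts per siEgr2 library), Txnip (-0.73), which restrains glucose uptake, Slc2a10 (-0.61) and Slc16a6 (-0.53). Called higher was Slc16a8, with 1.17 on 7 to 22 counts per siEgr2 library. Bsg, the chaperone that brings MCT1 to the membrane, had a log2 fold change of 0.073 (95% interval -0.082 to 0.23).

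Of the regulators that are known to drive glycolytic genes, Hif1a had a log2 fold change of -0.014 (edgeR adjusted p = 0.903), and its relative Epas1, called in this list, fell from 96.0 ± 9.22 to 57.1 ± 3.75 CPM (log2 fold change -0.75, adjusted p = 8.22e-07). In the list of 12 tested regulators 2 fell, Epas1 and Egln3, and 2 rose, Myc (0.34) and its partner Max (0.40). Targets of hypoxia-inducible factors (HIF) listed as outside glycolysis split, with 3 of 14 tested that fell and 2 that rose, 0 called and a median of -0.044. This list includes Pfkfb3, which was also counted above among the genes of the activator of phosphofructokinase. No list of Myc targets was examined. Adm had 0.39 and Ndrg1 -0.34 (edgeR adjusted p = 0.0528).

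**Figure D4:**
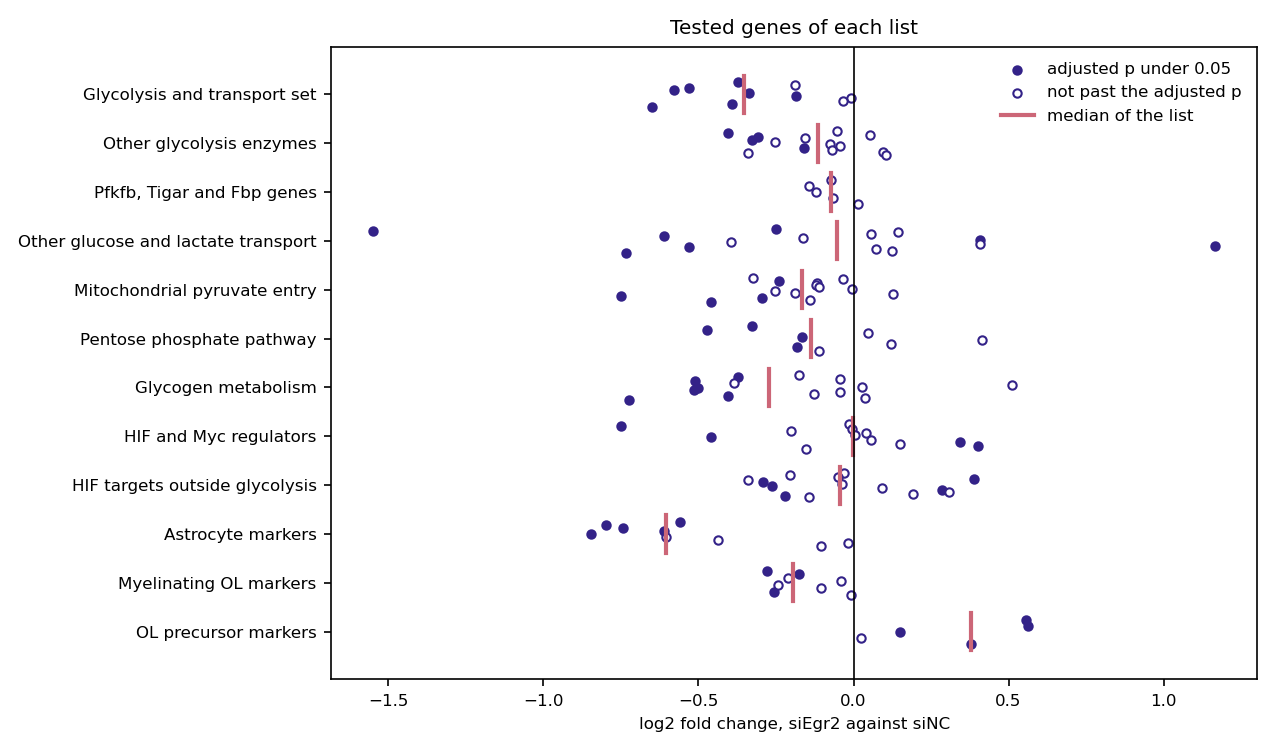
Log2 fold change of siEgr2 against siNC for every tested gene of each list, filled where the adjusted p was under 0.05, with the median of the list as a bar. The 10 genes, the glycogen genes and the astrocyte markers have medians of -0.35, -0.27 and -0.60, the median of the HIF targets outside glycolysis is -0.044, and that of the OL precursor markers is 0.38.

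Markers of other cell types and stages moved with the groups as well, with their part likewise not tested. Of the 9 astrocyte markers, all had negative log2 fold changes, 5 were called lower and all had counts in every library, with a median of -0.60. Gfap had -0.56 and Slc1a3, a glutamate transporter, -0.85. Of 8 markers of myelinating OLs 3 fell, with a median of -0.19 and summed levels of 7279 to 8302 CPM and 6836 to 7118 CPM, among them Mbp at -0.28. Of 5 markers of OL precursors 4 rose and 2 were called higher, Pdgfra (0.56) and Cspg4 (0.56), with a median of 0.38 and summed levels of 2487 to 2690 CPM and 2994 to 3210 CPM. Ptprz1 and Gpr17 had 0.15 and 0.026. Of 4 tested microglial markers 0 passed the adjusted p in edgeR's test, with Tmem119 at 1.43 ± 0.396 CPM in siNC (SD, n = 6) and 0 counts of Aif1 throughout. Of 3 tested endothelial markers 1 fell, Flt1 (-1.35 on 3 to 22 counts per siEgr2 library). Neuronal markers summed to 129 to 144 CPM in siNC and 112 to 125 CPM in siEgr2, without overlap. Most of this sum was Tubb3, at 114 ± 7.16 and 94.5 ± 4.33 CPM (SD, n = 6). Of 5 tested neuronal markers 3 had positive and 2 negative log2 fold changes, with a median of 0.31. Tubb3 fell (-0.27) and Syt1 rose (0.31). Of 5 tested markers of fibroblasts and pericytes 3 fell and 2 were called lower, the pericyte genes Pdgfrb (-0.56) and Rgs5 (-0.78), with summed levels of 365 to 614 CPM in siNC and 364 to 440 CPM in siEgr2. Dcn fell as well (-0.45), and Col1a1 had -0.16 and did not pass (edgeR adjusted p = 0.327).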

How the data were processed

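Total RNA was sequenced on the Illumina platform with reads of 50 bp, and the authors deposited raw counts per gene symbol for 12 libraries, without normalization. The submitters' processing notes name the build mm10, and the aligner, the counting program and the use of strand are not given in the sources used here. The table held 1 blank entry with no values, which was left out.

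Groups and replicate numbers came from the labels. No library repeats another: over 30 pairs within a group the chi-square per gene was 7.09 to 36.7, where sampling noise gives about 1. The analysis used edgeR 4.0.16 under R 4.3.3 (filterByExpr, TMM, robust quasi-likelihood test, no covariate) and adjusted by Benjamini-Hochberg over all 16600 genes tested. Calls needed both an adjusted p below 0.05 and a log2 fold change beyond 0.5 in either direction, which are the thresholds of the study. Intervals are 95% and come from that fit. Shares within a step were compared by the exact permutation test, two-sided. The procedure was tested on simulated data with planted changes larger than any of the 10 genes showed. There it found nearly all changed genes of higher levels and missed many with few counts. How well it finds changes as small as those of the 10 genes was not tested. The 10 genes and the lists were chosen with earlier results of these data known. Lists were described by counts and medians only. From each list the text names the called genes or, where there were none, the 2 with the largest change, and for cell types the 2 markers of highest level and any with no counts, except for a few markers that are not reported here. A few further genes were named after their values were seen: Tpi1, Eno1, Gapdh, Bsg, Flt1, Pdgfra, Cspg4, Pdgfrb, Rgs5, Hif1a, Myc, Max and Egln3. Exon lengths (protein-coding transcripts of the basic set) and positions came from GENCODE M21 on GRCm38, which is mm10, and promoter windows from RefSeq on GRCm38.p6, where all 10 genes matched. Protein sequences were not used here. Alternatives were other scaling factors, limma-voom (limma 3.58.1), DESeq2 1.42.0, other filters, thinning to the smallest total, structural RNA genes left out, other thresholds, a replicate block and leaving out each library.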

Additional observations from a re-analysis of the deposited data

Results flagged for a closer look

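A single library stood apart from the other 5 of its group in 3 of 38 groups of values examined by Dixon's test, where chance gives about 1.9. Slc2a1 had 51.0 CPM in siEgr2 replicate 5, above the 43.6 to 45.8 CPM of the other siEgr2 libraries, and this library is the smallest, with 8034251 counts. Slc16a1 took 87.1% of the summed counts of Slc16a1, Slc16a3 and Slc16a7 in siNC replicate 6, against 92.6% to 94.8% in the other siNC libraries. The same library had the highest total of its group, 39383014 counts, against 28682946 to 32460116.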

How the results depend on the processing

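Over 23 alternatives for each of the 10 genes, 220 of 230 values kept their direction and their side of the threshold for a call. The genes called lower were 3 in the edgeR fit, 6 with library size only (Slc2a1, Aldoc and Ldhb being added), 1 with glmTreat at 0.5 and 0 at a log2 fold change over 1. All genes called numbered 1281, then 1974 with library size only, 237 with glmTreat and 373 at a log2 fold change over 1. Hk2 lost its call at -0.496 with library size after the structural RNA genes were left out. With library size only, 10 of the 10 genes passed the adjusted p, against 7 with TMM, Pkm at -0.19 and Ldha at -0.22 among them. With TMM but no filter on low counts, Hk1 passed as well (-0.23, edgeR adjusted p = 0.0264). Values that changed sign were those of Pkm and Ldha, which did not pass with TMM: 0.027 and 0.00055 with library size after structural RNA genes were left out, and for Pkm 0.0012 without siNC replicate 3 and 0.0094 without siNC replicate 6, in a range of -0.023 to 0.0094 when each library was left out. Egr2, not called above, was called with library size only (-0.70, edgeR adjusted p = 0.0144).

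Same-numbered libraries of the groups did not deviate together, with correlations of their deviations from the group means between -0.039 and 0.042, and 2 of 6 siNC libraries correlating best with their own number, so the numbers were not taken as pairs. With a replicate block 1124 genes were called, Hk2, Pfkp and Slc16a1 among them, and no gene of the 10 changed its call. In the paired sign-flip test of the shares, whose smallest p is 0.0313, the adjusted p was 0.0625 for Ldhb and Pfkp and 0.0750 for Hk2 and Aldoc, with differences of -5.62, -5.99, -4.58 and -3.23 percentage points, so those calls were lost. Thinned to the smallest total, the Hk2 share differed by -5.15 percentage points (exact permutation test, adjusted p = 0.0584). As a log2 ratio to the other genes of its step, Slc16a1 differed by -0.89 and passed (exact permutation test, adjusted p = 0.0468).

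Leaving out each library in turn gave differences of -5.54 to -3.85 percentage points for the Hk2 share, -6.76 to -5.16 for Pfkp, -3.87 to -2.57 for Aldoc and -7.55 to -3.96 for Slc16a1. The Hk2 call was lost without siNC replicates 2 to 6 and siEgr2 replicates 2, 4, 5 and 6, that of Aldoc without siNC replicates 2, 3, 4 and 6 and siEgr2 replicates 1, 2, 4, 5 and 6, and that of Pfkp without siNC replicates 2, 3 and 4. A test of 6 against 5 libraries has fewer assignments, 462, and its smallest p is larger. Depth limits precision for genes with few counts in siEgr2, such as Slc16a3 and Slc2a4.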
